A study of Mus musculus with 27 samples.

Results

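The 8 genes described here encode the myosin of the heart muscle filament and the kinase that acts on it: the heavy chains Myh6, Myh7 and Myh7b, the light chains Myl2, Myl3, Myl4 and Myl7, and the light chain kinase Mylk3. They were taken by symbol, and all 8 were found among the 24025 genes of the bulk table and the 19020 genes of the single-cell table. The study deleted Hand2as (also Hand2os1 or Uph), a long non-coding RNA gene next to Hand2, which encodes a transcription factor of the heart, in C57BL/6 mice. Allele F is the full-length deletion, and allele D lacks only the distal part, at the 3' end. The 25 bulk libraries were 3 Hand2asF/+ and 3 Hand2asF/F whole hearts at E11.5 (embryonic day), ventricles at E16.5 (3 Hand2asF/+, 3 Hand2asF/F), and isolated cardiomyocytes at 8 weeks of age (5 Hand2as+/+, 2 Hand2asD/+, 6 Hand2asD/D). A further 2 libraries held single cells of E11.5 hearts, 1 from Hand2as+/+ and 1 from Hand2asF/F embryos, each a pool of 6 hearts. Both embryonic bulk control groups therefore carried 1 deleted allele, while the single-cell control carried none. The labels do not say whether bulk replicates were single animals or pools, so p-values measure the spread between these samples, which may be technical.

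Myosin of heart muscle is a hexamer of a heavy chain pair, which hydrolyses ATP and pulls on actin, with an essential and a regulatory light chain bound to each heavy chain. Myh6 encodes the fast alpha heavy chain and Myh7 the slow beta heavy chain, and mice are known to switch between them around birth. Myl7 and Myl4 encode the atrial regulatory and essential light chains, which are also made in the early heart tube, and Myl2 and Myl3 encode their ventricular counterparts. Mylk3 encodes the cardiac kinase that phosphorylates the regulatory light chain, and Myh7b is a distant slow relative of Myh7.

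Myh6 and Myh7 are neighbours on the minus strand of chromosome 14 (chr14:54941921-54966927 and chr14:54970684-54994626, GRCm38.p6), with 3756 bases between them. Their coding sequences, of 1937 and 1934 amino acids, were identical at 91.7% of 5802 aligned bases. Of all runs of 50 coding bases, 23.8% of those of Myh6 occurred unchanged in Myh7. The longest shared run, of 245 bases, is shown because reads from inside it cannot be assigned to 1 of these genes, which bears on every Myh6 to Myh7 ratio given here. It spans exons 30 to 31 of 39 in Myh6 (chr14:54948327-54948725) and exons 32 to 33 of 41 in Myh7 (chr14:54974947-54975347), and how the authors treated such reads is not given in the sources used here.
Shared coding run of Myh6 and Myh7: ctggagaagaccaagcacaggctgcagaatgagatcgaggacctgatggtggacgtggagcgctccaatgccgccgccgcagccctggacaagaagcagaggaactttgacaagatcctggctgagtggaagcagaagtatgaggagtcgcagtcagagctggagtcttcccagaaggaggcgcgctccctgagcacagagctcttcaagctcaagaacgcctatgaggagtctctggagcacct

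The windows of 250 bases before the RefSeq start sites (GRCm38.p6) of 4 members are shown because these genes stood for the main patterns below: the heavy chain pair, the atrial Myl7 and the ventricular Myl3. Capitals mark matches to the M-CAT element (CATTCC, either strand) or the CArG box. Both are motifs known from muscle genes.
Myh6, chr14:54966608-54966857, minus strand: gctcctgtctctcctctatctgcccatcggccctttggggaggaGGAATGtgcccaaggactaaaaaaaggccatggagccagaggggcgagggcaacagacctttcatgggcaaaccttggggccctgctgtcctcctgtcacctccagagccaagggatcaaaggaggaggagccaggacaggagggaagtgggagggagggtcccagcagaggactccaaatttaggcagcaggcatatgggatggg
Myh7, chr14:54994627-54994876, minus strand: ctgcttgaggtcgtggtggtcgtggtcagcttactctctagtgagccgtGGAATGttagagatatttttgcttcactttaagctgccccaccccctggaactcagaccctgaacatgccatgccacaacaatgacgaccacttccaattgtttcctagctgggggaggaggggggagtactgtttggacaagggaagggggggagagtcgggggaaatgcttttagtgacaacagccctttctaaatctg
Myl7, chr11:5898783-5899032, minus strand: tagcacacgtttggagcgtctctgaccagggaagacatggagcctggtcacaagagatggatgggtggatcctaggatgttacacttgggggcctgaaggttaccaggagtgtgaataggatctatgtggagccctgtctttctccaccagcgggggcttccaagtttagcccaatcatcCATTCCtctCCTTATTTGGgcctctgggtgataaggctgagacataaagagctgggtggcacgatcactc
Myl3, chr9:110763428-110763677, plus strand: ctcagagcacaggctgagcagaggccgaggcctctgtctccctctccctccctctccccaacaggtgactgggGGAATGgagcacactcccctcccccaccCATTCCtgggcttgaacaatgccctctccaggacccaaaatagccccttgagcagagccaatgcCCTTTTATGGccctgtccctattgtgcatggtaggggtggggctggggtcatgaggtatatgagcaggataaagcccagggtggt
An M-CAT match was found 206 bases before the start in Myh6, 201 in Myh7 and 70 in Myl7, at 2 places in Myl3, and 148 bases before the start in Mylk3. It occurred in 12.6% of 32851 windows of the same length. A CArG match lay 85 bases before the start in Myl3 and 61 in Myl7, against 1.47% of all windows, and neither overlapped an M-CAT match. The other motifs searched on both strands were the E-box (CANNTG, in 66.2% of all windows), GATAA (22.6%), TCACACC (3.33%), TATAAA (12.4%) and the MEF2 site (0.508%). The windows of Myh7b and Myl4 had no M-CAT match, while all windows shown above held this motif. The E-box was found in the windows of Myh6, Myh7, Myh7b, Myl3 and Myl7. The motif with the 22.6% share was found in those of Myh7b, Myl3 and Myl7. The remaining motifs of that list had no match in any member window used. The window of Myl4 matched none of the motifs searched. A match only describes the letters in the window. The window of Myl2 was not used, because its RefSeq start lay 7762 bases from the GENCODE start.

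Of the 8 genes, 3 contain the gene of a small RNA, and these mature forms are shown because their hosts are the 3 heavy chain genes. The seed, bases 2 to 8, is in capitals, and miR-208a-3p and miR-208b-3p share it.
miR-208a-3p, within Myh6, chr14:54949072-54949093: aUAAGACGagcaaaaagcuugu
miR-208b-3p, within Myh7, chr14:54975710-54975731: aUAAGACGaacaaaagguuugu
miR-499-5p, within Myh7b, chr2:155622893-155622913: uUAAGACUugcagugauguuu
Mir208a, Mir208b and Mir499 were listed at 0 in all 25 bulk libraries, which were made from poly(A) RNA.

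Bulk values were taken as FPKM, a unit that was inferred and is scaled by transcript length. Levels of different genes within a library are compared only as listed, and depth is unknown. Single-cell values were UMI counts from the 3' end, given as CPM, the UMIs of a gene scaled to all UMIs of a cell class. No E11.5 library had any FPKM for the deleted gene, so it checks no label there. It was at 0.37 to 1.40 FPKM in F/+ and 0 in F/F ventricles, and at 5.25 to 6.17 in D/+ and 0 to 2.67 in D/D cardiomyocytes. Several libraries stood apart. Among E11.5 hearts, F/+ replicate 3 and F/F replicate 2 were lowest in long transcripts: the median log2 level of genes of 6000 or more bases, relative to that of genes of at most 1500 bases, was -0.14 and -0.33, against 0.03 to 0.27 in the other 4. Haemoglobin genes took 10.4% to 29.7% of the FPKM at E11.5 and at most 2.42% later. The library labelled +/+ 8-week replicate 5 had no FPKM for the deleted lncRNA gene (0, against up to 13.5 in its group) and was low in long transcripts (-0.34). D/D 8-week replicate 5 was next lowest in long transcripts at that age (-0.17). Gapdh was listed at 5.09 FPKM or less in every embryonic library and at 980.45 or more in every 8-week library, so levels across that step may also differ through how the tables were made, which was not tested. Whether single genes were listed too low within the embryonic libraries was not tested either. Y-linked genes were expressed in 3 of 3 F/F and 1 of 3 F/+ ventricles and in 2 of 3 F/F and 1 of 3 F/+ E11.5 hearts.

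The members' listed levels were ordered differently at each stage. In F/+ hearts at E11.5 the regulatory light chains came first, with Myl7 at 3463 ± 518 and Myl2 at 3006 ± 139 FPKM (SD, n = 3), whose ranges overlapped. Myl4 (1789 ± 140) and Myl3 (1220 ± 195 FPKM) followed without overlap. Below them lay Myh7 (550 ± 273) and Myh6 (527 ± 102), which overlapped, then Mylk3 (41.9 ± 5.59) and Myh7b (8.30 ± 2.53 FPKM). By E16.5 Myl3 (3694 ± 208) and Myh7 (3364 ± 315 FPKM) led in F/+ ventricles, with overlapping ranges, and Myl4, Myl2, Myh6 and Myl7 formed a second tier of means between 335 and 611 FPKM. In +/+ 8-week cardiomyocytes Myl2 led with 13796 ± 1454 FPKM (SD, n = 5), ahead of Myh6 (7936 ± 1316) and Myl3 (6797 ± 1011), and no other member had a mean above 286 FPKM. Together the 8 genes took 2.25% to 3.25% of the FPKM of an E11.5 library, 2.56% to 2.79% at E16.5 and 5.43% to 7.24% at 8 weeks.

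**Figure D1:**
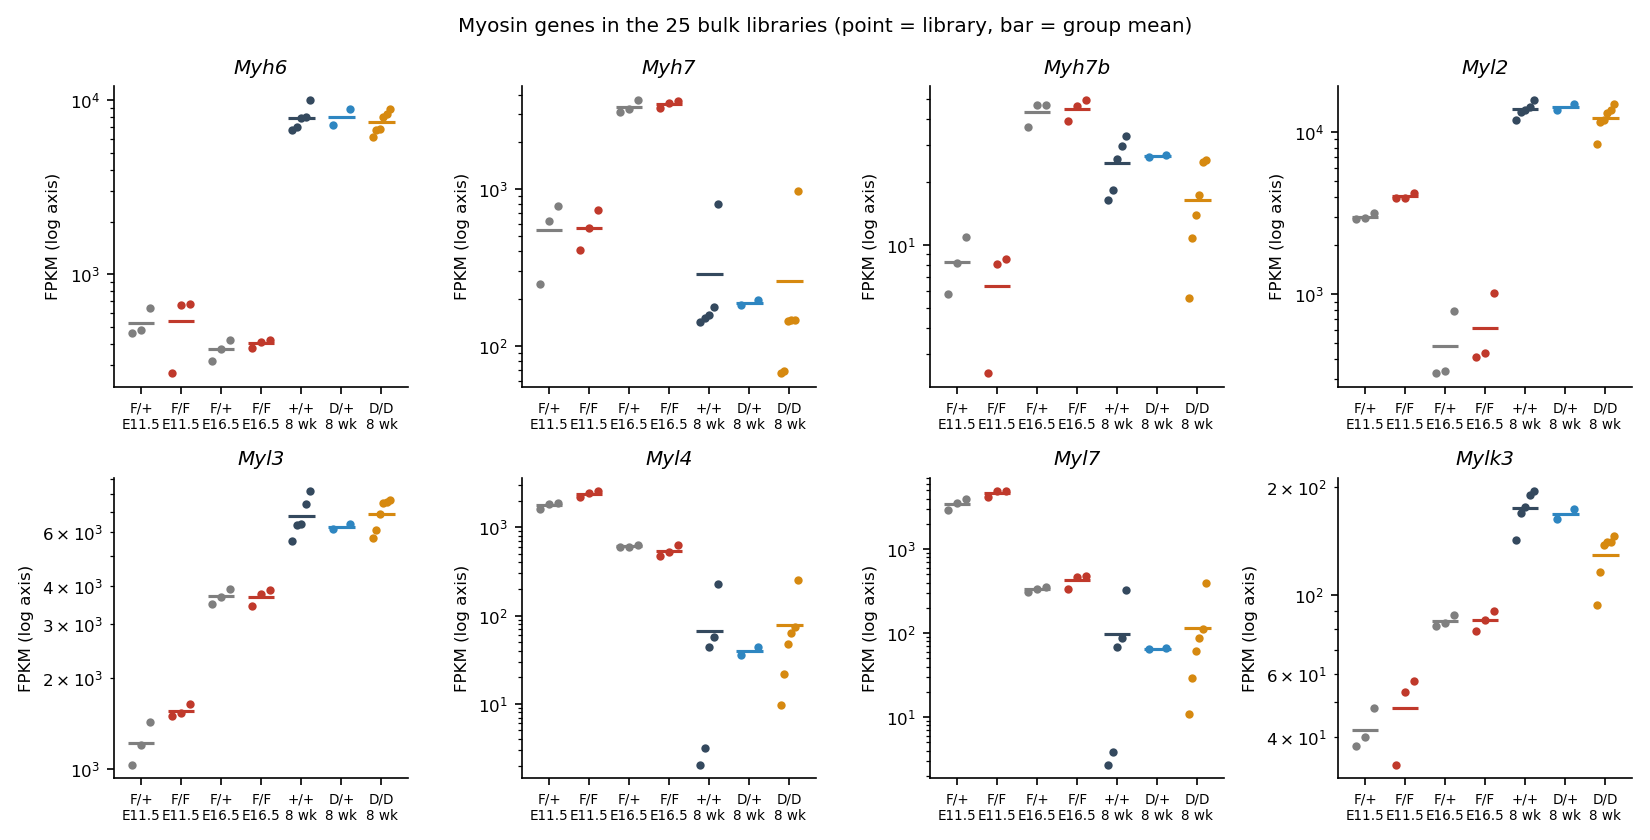
FPKM (log axis) of each of the 8 genes in the 25 bulk libraries by group; points are libraries and bars are group means. Myh7 was highest at E16.5, Myh6, Myl2 and Myl3 at 8 weeks, and Myl4 and Myl7 at E11.5; Myl7 ranged from 2.72 to 398 FPKM among 8-week libraries.

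The step from F/+ E11.5 hearts to F/+ E16.5 ventricles compared stage and tissue part at once, which cannot be told apart. Of the 8 members, 7 passed the test (limma with an intensity trend on log2(FPKM + 1), Benjamini-Hochberg adjusted p of 0.05 over 11423 genes): 4 rose and 3 fell. Over all genes tested 49.5% were called, 18.3% higher and 31.2% lower, against 4 and 3 of the 8 members; the share of members that fell was near the background. The median log2 difference was 0.25 for the members and -0.18 for all genes. In bulk tissue, fewer cells of a type and less RNA per cell cannot be told apart.

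Among the heavy chains, Myh7 and Myh7b rose. Myh7 was at 625, 779 and 247 FPKM in the 3 F/+ hearts and at 3124, 3248 and 3720 FPKM in the 3 F/+ ventricles. Every ventricle thus lay far above every heart, and the log2 difference was 2.76 (SE 0.33, adjusted p = 2.1e-05). Myh7b went from 8.16, 10.9 and 5.84 to 36.6, 46.8 and 46.9 FPKM, a log2 difference of 2.28 (SE 0.33, adjusted p = 9.2e-05). Myh6 was at 477, 644 and 460 FPKM in the hearts and at 319, 372 and 421 FPKM in the ventricles. Although the groups did not overlap, its difference of -0.50 did not pass (SE 0.28, adjusted p = 0.156). Without both E11.5 libraries low in long transcripts, a comparison added after the data were seen, it was -0.59 and passed.

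The regulatory light chains both fell. Myl7, the atrial one, was at 2915, 3945 and 3530 FPKM at E11.5 and at 312, 357 and 335 FPKM at E16.5, the largest fall among the members (log2 -3.36, SE 0.16, adjusted p = 1.2e-08). Myl2, the ventricular one, was at 2912, 2939 and 3166 FPKM in the hearts and at 783, 326 and 337 FPKM in the ventricles (log2 -2.76, SE 0.34, adjusted p = 2.9e-05). So the labelled ventricles held less Myl2 than the whole hearts at E11.5, and among them F/+ replicate 1 was highest. The essential light chains moved apart: the ventricular Myl3 rose by 1.61 (SE 0.13) from 1202, 1424 and 1035 to 3671, 3498 and 3912 FPKM, with an adjusted p of 7.5e-07. The atrial and embryonic Myl4 fell from 1630, 1891 and 1848 to 601, 633 and 600 FPKM (log2 -1.55, SE 0.13, adjusted p = 8.9e-07). The kinase Mylk3 rose from 39.8, 48.2 and 37.6 to 81.8, 83.2 and 87.8 FPKM (log2 0.999, SE 0.18, adjusted p = 0.00044). In a fit of all 25 libraries the call of Myl4 was lost (adjusted p = 0.268, and 0.117 in F/F).

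The same step within F/F libraries called the same 7 members in the same directions, against 50% of all genes (18.8% higher, 31.2% lower). Its log2 differences were 2.66 for Myh7, 2.77 for Myh7b, -2.82 for Myl2, 1.24 for Myl3, -2.16 for Myl4, -3.46 for Myl7 and 0.84 for Mylk3. Myh6 had -0.31 (SE 0.28, adjusted p = 0.382), but -0.75 and called without both E11.5 libraries low in long transcripts, and 0.06 when values were scaled to a common sum without haemoglobin genes. That scaling moved the median of all genes from -0.16 to 0.15, and the calls over all genes from 2151 higher and 3561 lower to 3239 higher and 2144 lower. The 7 members kept their direction and their call under it.

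A wider list of 40 other myosins, thick filament proteins and myosin regulators was set beside the members. Of its 26 tested genes, 10 rose and 6 fell between F/+ E11.5 and E16.5, and the median log2 difference was 0.02. Among the largest rises were Myom2, an M-band protein (log2 4.42, from 0.173 to 24.2 FPKM), and Mybpc2, the fast myosin-binding protein C (1.78, listed at 0 at E11.5). The 3 largest falls were Mybphl, an atrial relative of myosin-binding protein C (-4.40, from 31.2 to 0.53 FPKM), and the skeletal light chains Myl1 (-4.05) and Mylpf (-3.09). In F/F the list had 10 rises and 8 falls.

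Between F/+ E16.5 ventricles and +/+ 8-week cardiomyocytes, age, genotype of the controls, preparation and the level of Gapdh all differed, and their parts cannot be told apart. All 8 members passed, 4 higher and 4 lower, against 69.8% of 10904 genes (24.9% higher, 44.9% lower). The members' median was 0.02 and that of all genes -0.34. Calls over all genes were 2716 higher and 4897 lower, but 3389 and 3899 with median-ratio scaling (median of all genes -0.08) and 1996 and 6117 with the sum without haemoglobin (median -0.67).

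The heavy chains crossed over. Myh6 reached 6976, 6743, 7982, 7903 and 10076 FPKM in the +/+ cardiomyocytes, every value far above the highest F/+ ventricle value of 421 FPKM (log2 4.41, SE 0.17, adjusted p = 4.8e-08). Myh7 stood at 158, 804, 151, 143 and 176 FPKM, below all ventricles (log2 -3.94, SE 0.51, adjusted p = 9.8e-05), and replicate 2 lay apart from the other 4. Myh7b, at 18.4, 29.7, 25.8, 33.3 and 16.3 FPKM, fell by 0.83 (SE 0.23, adjusted p = 0.010), a call lost with median-ratio scaling (-0.54, adjusted p = 0.066) and in a fit of all 25 libraries (adjusted p = 0.052).

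Of the light chains, Myl2 rose most, to 11845, 14356, 13333, 13626 and 15819 FPKM (log2 4.96, SE 0.27, adjusted p = 3.6e-07). Myl3 rose by 0.87 (SE 0.15, adjusted p = 0.00073) to values between 5621 and 8187 FPKM. Myl4 fell by 4.68 (SE 1.27, adjusted p = 0.0083) to 229, 44.3, 3.16, 56.8 and 2.05 FPKM, lower than every ventricle but spread widely. Myl7, at 323, 69.3, 3.83, 87.1 and 2.72 FPKM, had a log2 difference of -3.37 (SE 1.34, adjusted p = 0.047). Its ranges overlapped, since replicate 1 lay inside the ventricle range, and it passed in only 4 of 13 alternatives. Without the library labelled +/+ replicate 5 it was -2.59 (adjusted p = 0.057), and the other 7 members kept their calls. Mylk3 rose by 1.03 (SE 0.13, adjusted p = 6.9e-05) to values between 142 and 195 FPKM.

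In this step 15 of the 27 tested genes of the wider list rose and 6 fell, with a median of 0.84. The largest rises were the non-muscle heavy chain Myh14 (log2 5.13, from 0.197 to 41.6 FPKM), Mylk4, a kinase of the Mylk3 family (4.83, from 0.35 to 39.2), and the smooth muscle heavy chain Myh11 (3.97). The largest falls were the smooth muscle and non-muscle light chain Myl9 (-3.61, from 750 to 60.7 FPKM), the non-muscle heavy chain Myh10 (-3.37) and Ppp1cb, a catalytic subunit of myosin phosphatase (-2.30).

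The ratio of Myh6 to Myh7 within a library removes differences that scale both genes alike. All bulk ratios given here are those of FPKM + 1. The Myh6 to Myh7 ratio was 0.764, 0.828 and 1.85 in F/+ hearts and 1.18, 0.668 and 0.926 in F/F hearts at E11.5. The listed levels of the 2 heavy chains were thus near parity. At E16.5 the ratio was 0.102, 0.115 and 0.113 in F/+ and 0.112, 0.107 and 0.128 in F/F ventricles, a narrow range in both genotypes. In 8-week cardiomyocytes it was 44.0, 8.38, 52.5, 55.0 and 56.9 for +/+ and 36.9 and 48.6 for D/+. For D/D it ran from 9.16 to 100 with a median of 55.7. On the log2 scale the F/+ step from E11.5 to E16.5 was -3.26, without overlap (two-sided exact permutation test, p = 0.1, the smallest 3 against 3 allows). From F/+ E16.5 to +/+ 8 weeks it was 8.35 (exact permutation p = 0.036, the smallest 5 against 3 allows, and 0.179 adjusted over the 10 ratio comparisons).

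Myl2 to Myl7 spread more widely at E16.5 than at E11.5, and both genes fell between these stages. It was 0.999, 0.745 and 0.897 in F/+ and 0.862, 0.794 and 0.934 in F/F hearts at E11.5. At E16.5 it was 2.50, 0.915 and 1.01 in F/+ and 1.30, 0.880 and 2.11 in F/F ventricles, overlapping the hearts in each genotype, with 1 library in each above 2. The F/+ stage difference was 0.60 on the log2 scale (exact permutation p = 0.2). In 8-week +/+ cardiomyocytes the ratio, again of FPKM + 1, was 36.6, 204, 2761, 155 and 4253, and in D/+ it was 228 and 201. The added 1 lowered it most where Myl7 was lowest. On the same FPKM + 1 scale the D/D range was 32.6 to 1248 with a median of 140. Most of this range was that of Myl7: among the 13 libraries Myl2 ranged from 8386 to 15819 FPKM and Myl7 from 2.72 to 398 FPKM. The step from F/+ E16.5 was 8.32 (exact permutation p = 0.036, adjusted 0.179).

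**Figure D2:**
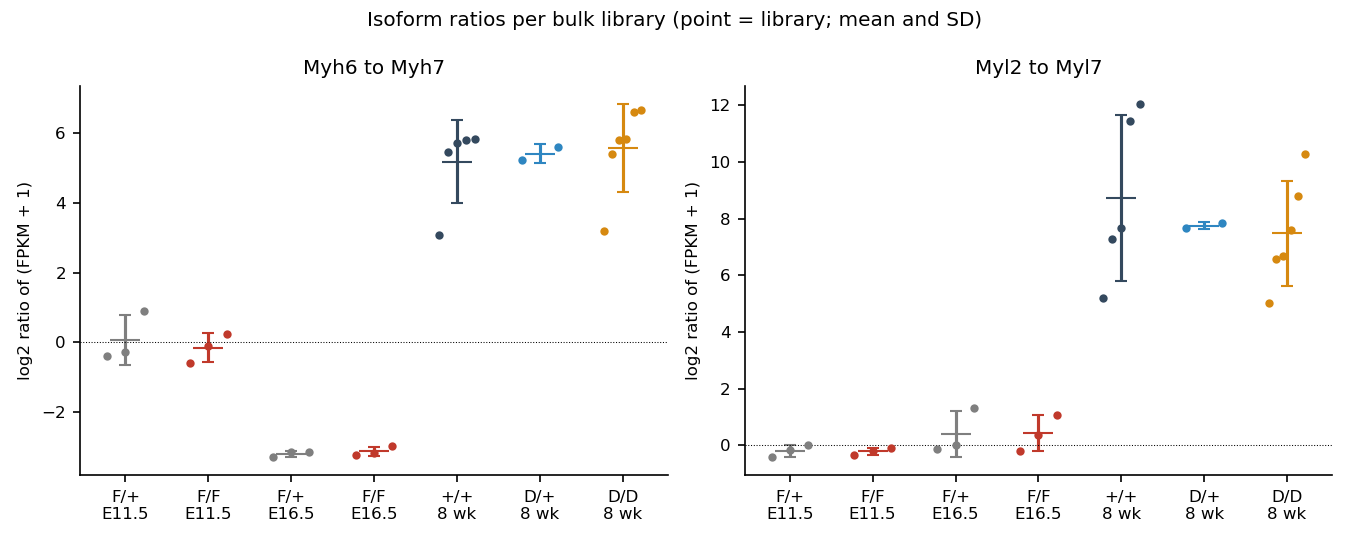
Log2 ratio of (FPKM + 1) for Myh6 to Myh7 and Myl2 to Myl7 in each bulk library by group; points are libraries, with the mean and SD. Myh6 to Myh7 went from near 0 to about -3.2 and then above 3 in every 8-week library, while Myl2 to Myl7 was above 1 in 2 of 6 E16.5 libraries and above 5 in every 8-week library.

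The full-length deletion was compared with heterozygotes at E11.5. None of the 8 members passed the test, against 0.0087% of 11491 genes called (1 gene); at an unadjusted p under 0.05, 502 genes and 4 members were below it. Those 4 were the light chains, and none of their groups overlapped. A higher F/F group without overlap was found in 4.93% of all genes, beside 4 of 8 members. The members' median log2 difference was 0.26 and that of all genes 0.02.

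Myl2 was at 4213, 3893 and 3901 FPKM in F/F hearts, above the F/+ values given before (log2 0.41, SE 0.15, limma adjusted p = 0.999). Myl7 was at 4889, 4902 and 4175 FPKM (0.43, SE 0.17), Myl4 at 2475, 2191 and 2565 FPKM (0.43, SE 0.15) and Myl3 at 1492, 1528 and 1642 FPKM (0.36, SE 0.16). All 4 differences were thus of similar size. Column sums were 442355 to 586795 FPKM in F/F and 376930 to 457462 in F/+ hearts. With values scaled to a common sum without haemoglobin genes, the light chain differences were 0.04 for Myl2, -0.01 for Myl3, 0.06 for Myl4 and 0.06 for Myl7, and the median of all genes was -0.31. Relative to that median the light chains stayed higher in F/F, as they were under the deposited scale, but their level against an absolute amount cannot be told from these values. Without both libraries low in long transcripts the differences on the deposited scale were 0.47, 0.26, 0.52 and 0.41, none called.

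The heavy chains varied more between replicates. Myh6 was at 671, 271 and 676 and Myh7 at 567, 406 and 731 FPKM in F/F hearts, where replicate 2 was lowest in both. The log2 differences were -0.07 (SE 0.32) and 0.16 (SE 0.37), and both changed sign without the 2 libraries low in long transcripts (0.28 and -0.12). Myh7b was at 8.12, 2.43 and 8.59 FPKM (-0.44, SE 0.40) and Mylk3 at 53.2, 33.4 and 57.4 FPKM (0.16, SE 0.22). The replicates with the least Ttn, a very long transcript (5.96 FPKM in F/+ replicate 3 and 2.61 in F/F replicate 2), also had the least Myh7 and Myh7b in their groups, and the part of this in the differences was not tested.

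At E16.5 no member passed either, against 0.00935% of 10699 genes (1 gene), and 0 members and 281 genes had an unadjusted p under 0.05. Myl7 was at 332, 467 and 482 FPKM in F/F against 312, 357 and 335 in F/+ ventricles (log2 0.33, SE 0.15, limma adjusted p = 0.9999). Across 13 alternatives it stayed between 0.24 and 0.50. Myl2, at 432, 411 and 1016 FPKM, gave 0.35 (SE 0.43), and -0.07 without F/F replicate 3. Myl4, at 474, 523 and 631 FPKM, gave -0.18 (SE 0.11). The heavy chains, Myl3 and Mylk3 differed by at most 0.12 on the log2 scale, with SEs of 0.08 to 0.13. A difference of the genotype effects between the stages was called for no member and for 0.00875% of 11423 genes (1 gene). The largest among members was that of Myl4 (-0.61, SE 0.18, limma adjusted p = 0.988). Of the wider list, 0 of 25 tested genes were called at E11.5, with 3 at an unadjusted p under 0.05, and 0 of 25 at E16.5, with 1.

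The distal deletion was compared in 8-week cardiomyocytes, with +/+ and D/+ together as control. No gene passed (0% of 10249; 175 genes and 2 members had an unadjusted p under 0.05), and the members' median was -0.15 against -0.01 for all genes. Of the wider list 0 of 27 tested genes passed, with 1 at an unadjusted p under 0.05. The 2 members were Mylk3 and Myh7b. Mylk3 was at 142, 169, 176, 190 and 195 FPKM in +/+ and at 162 and 174 in D/+ libraries, while D/D libraries ran from 93.3 to 146 with a median of 139 FPKM. Only the lowest control, +/+ replicate 1, lay inside the D/D range. The log2 difference was -0.43 (SE 0.12, limma adjusted p = 0.9999), and it lay between -0.47 and -0.25 in 23 alternatives. Myh7b ran from 5.57 to 25.6 with a median of 15.6 FPKM in D/D, against 18.4, 29.7, 25.8, 33.3 and 16.3 in +/+ and 26.9 and 26.4 in D/+ libraries (-0.71, SE 0.29). Of the controls, +/+ replicates 1 and 5 lay inside the D/D range. The lowest D/D values of Mylk3 and Myh7b were both in D/D replicate 5, which was low in long transcripts (-0.17).

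The 13 libraries were clustered by expression of other genes, cut until 2 sets of 3 or more libraries appeared, which took 5 clusters. The 2 sets each held 3 controls and 2 D/D. The library labelled +/+ replicate 5, and D/D replicates 5 and 6, each stood alone, so the sets depend on this stopping rule. Within the first set Mylk3 was at 142 to 169 FPKM in controls and 141 to 146 in D/D, and within the second at 174 to 190 and 138 to 140. The D/D values were lower without overlap in the second set and overlapped in the first. Myh7 was at 158 to 804 against 66.9 to 69.5 FPKM in the first set and at 143 to 182 against 145 to 147 in the second. Over all 13 libraries its difference was -0.42 (SE 0.55). Without +/+ replicate 2 (804 FPKM) it was -0.09, and without D/D replicate 6 (976 FPKM) -0.94. Over the 10 libraries of both sets, which leave out D/D replicate 6 and keep +/+ replicate 2, it was -1.09 both with and without a term for the sets (limma adjusted p = 0.968 with the term).

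The log2 ratio of Myh6 to Myh7 was 5.57 ± 1.26 in D/D (SD, n = 6) and 5.24 ± 0.98 in controls (SD, n = 7), a difference of 0.33 (exact permutation p = 0.578). Without +/+ replicate 2 that difference was -0.03. Over the 10 libraries of both sets, chosen after the data were seen, it was 1.07, and 0.66 without +/+ replicate 2 as well. Exact permutation p-values, unadjusted and without regard to the sets, were 0.00952 and 0.0159. This subset leaves out D/D replicate 6, whose log2 ratio of 3.19 was close to the 3.07 of +/+ replicate 2. Mean log2 ratios were 6.62 in D/D against 4.58 in controls of the first set and 5.80 against 5.70 in the second. The difference in Myl2 to Myl7 was -0.96 (exact permutation p = 0.445). At E11.5 and E16.5 neither ratio differed beyond its spread between F/F and F/+ (exact permutation p = 0.7 and 0.6 for Myh6 to Myh7, 0.9 and 1.0 for Myl2 to Myl7). Of the remaining members, Myh6 (-0.09, SE 0.12), Myl2 (-0.21, SE 0.12) and Myl3 (0.06, SE 0.11) had small SEs, while those of Myl4 (0.83, SE 0.94) and Myl7 (0.75, SE 1.01) were larger than the differences. Without the library labelled +/+ replicate 5, which was lowest in both, these last values were 0.30 and 0.18.

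**Figure D3:**
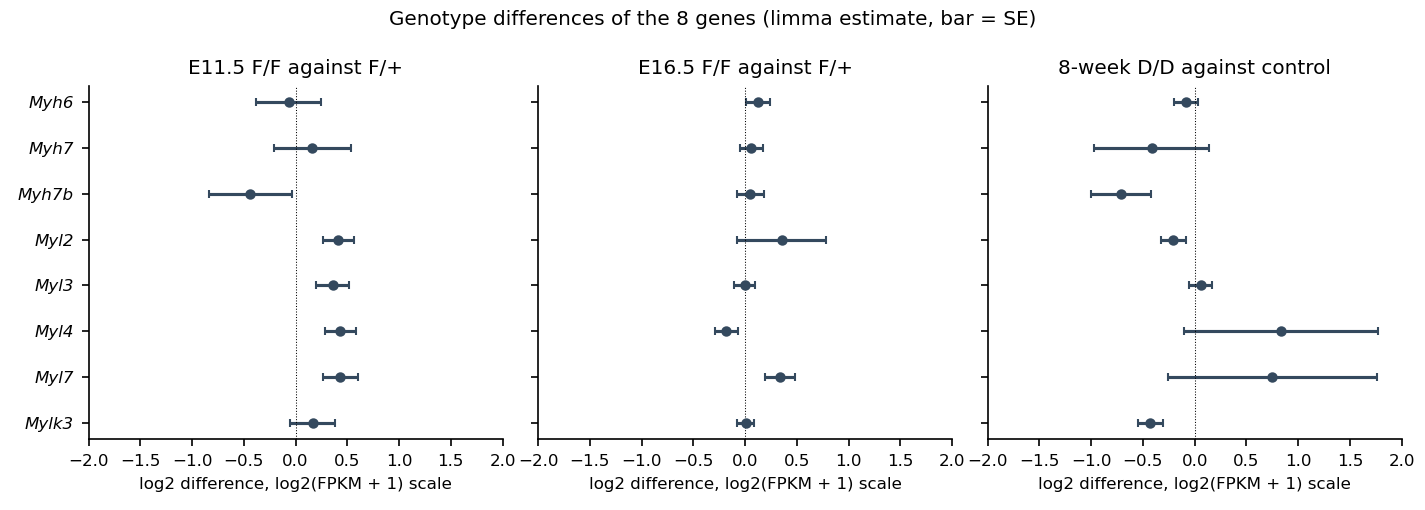
Log2 difference of each member on the log2(FPKM + 1) scale for F/F against F/+ at E11.5 and E16.5 and for D/D against control at 8 weeks; bars are the limma SE. The 4 light chains lay between 0.36 and 0.43 at E11.5, and no member passed the adjusted threshold in any panel.

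The 2 atrial light chains varied together from library to library at 8 weeks. Myl7 was highest in D/D replicate 2 (398 FPKM) and +/+ replicate 1 (323), where Myl4 was at 252 and 229 FPKM. It was lowest in the library labelled +/+ replicate 5 (2.72) and in +/+ replicate 3 (3.83), where Myl4 was at 2.05 and 3.16 FPKM. The highest libraries were thus of both genotypes, while the 2 lowest were +/+. The lowest D/D value of Myl7 was 10.88 FPKM, and the D/+ libraries were at 63.9 and 66.6 FPKM. Sln, the atrial regulator of the calcium pump, followed: 205 and 210 FPKM in the 2 highest libraries, 0 and 0.33 in the 2 lowest. Mybphl went from 30.2 and 33.8 to 0.73 and 0.10, and Nppa, the atrial natriuretic peptide gene, from 1315 and 1076 to 79.9 and 172 FPKM. Over these 13 libraries the genes most like Myl7 in log2(FPKM + 1), of the 6236 whose mean reached 5 FPKM, were Myl4 (Pearson r = 0.998), Sln (0.978) and Mybphl (0.973), a description chosen after the data were seen. Myl2, the ventricular chain, was at 13007 and 11845 FPKM in the 2 libraries highest in Myl7 and at 15819 and 13333 in the 2 lowest. The part of atrial cells in these values was not tested.

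**Figure D4:**
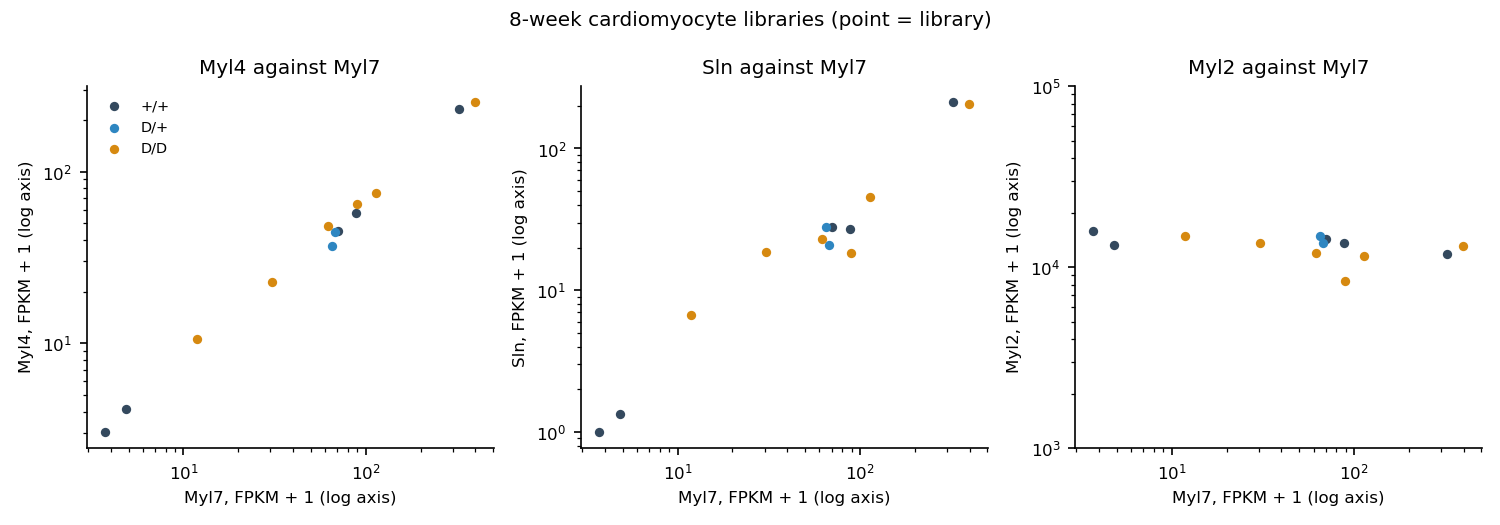
Myl4, Sln and Myl2 against Myl7 in the 13 8-week libraries, in FPKM + 1 on log axes; points are libraries, coloured by genotype. Myl4 and Sln lay along a line with Myl7 from 2.72 to 398 FPKM, while Myl2 stayed between 8386 and 15819 FPKM. The libraries lowest in Myl7 were +/+, and D/+ libraries lay at 63.9 and 66.6 FPKM of Myl7.

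Myh7 had another pattern at 8 weeks. It was at 804 FPKM in +/+ replicate 2 and 976 in D/D replicate 6, and between 66.9 and 195 FPKM in the other 11 libraries. These 2 libraries were not those high in Myl7, and their Myh6 values (6743 and 8941 FPKM) lay within those of the rest. Over all 25 libraries the genes most like each main member, of 7348 ranked, were Kcnk3, Trabd2b and Gm12070 for Myh6 (r = 0.990 to 0.993) and D830031N03Rik, Otud7b and Arvcf for Myh7 (0.924 to 0.939). For Myl2 they were Idh3g, BC002163 and Ube2s (0.975 to 0.983), and for Myl7 Nxt1, Mtmr2 and Colec12 (0.909 to 0.924). The points share 3 stages and their preparations.

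Single cells showed which E11.5 cells the transcripts came from. Of 5871 cells (2503 +/+ and 3368 F/F) in 18 clusters, 4 clusters were cardiomyocyte-like by markers that exclude the members: 582 cells in +/+ (23.3%) and 932 in F/F (27.7%). Cluster 4 was ventricular-like and trabecular-like (led by Nppa, Cited1 and Nppb), cluster 9 ventricular-like and cluster 11 outflow-like (Rspo3, Sema3c). Cluster 13 (led by Shox2 and Vsnl1) was named atrial-like because all 8 atrial markers led there. In cluster 13, 3 of 6 sinus and 3 of 6 outflow markers led as well, so it was not atrial-like alone. In cluster 9 Myl2 and Myl3 were among the 10 leading genes although no member was used for clustering. The libraries shared 18 barcodes. Genotype could not be tested here, with 1 library each, and intervals (exact, 95%) cover counting error only.

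Cardiomyocyte-like cells of both libraries held 751 CPM of Myh6, 2733 of Myh7, 12.5 of Myh7b, 8570 of Myl2, 5696 of Myl3, 7797 of Myl4, 11482 of Myl7 and 138 of Mylk3. Endothelial and endocardial-like, mesenchymal-like and erythroid-like cells held 125 to 160 CPM of Myl2 and Myl7 and 81 to 129 of Myl3 and Myl4. Erythroid cells should not make these chains, so that level serves as the background of free RNA. It differed between the libraries: in erythroid-like cells Myl2 was at 74.3 CPM in +/+ and 166 in F/F, Myl3 at 48.6 and 108, Myl4 at 67.1 and 156, and Myl7 at 82.6 and 193. These are F/F to +/+ ratios of 2.22 to 2.34. Mylk3 did not share this pattern in the same cells (21.9 and 17.8 CPM), and it was at 2.58 and 1.76 CPM in endothelial-like cells.

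The clusters used the chains differently. Myh6 was highest in the atrial-like cluster 13, at 1374 CPM in +/+ and 1512 in F/F, and lowest in the outflow-like cluster 11 (495 and 475). Myh7 was the reverse, at 625.5 and 562 CPM in cluster 13 and at 3624 and 3244 in cluster 11. From summed UMIs, Myh6 to Myh7 was therefore above 1 only in cluster 13 (2.20 in +/+ and 2.69 in F/F). It was 0.314 and 0.392 in cluster 4, 0.173 and 0.225 in cluster 9, and 0.136 and 0.146 in cluster 11. In all cardiomyocyte-like cells it was 0.244 and 0.299, below the bulk E11.5 ratios of 0.668 to 1.85. The scales differ, since UMIs count 3' ends and FPKM are set by length, so these ratios are given side by side only.

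Myl2 separated ventricular-like from other cardiomyocytes. It was at 10247 and 9444 CPM in cluster 4 and 11348 and 10971 in cluster 9, against 1864 and 2285 in cluster 11 and 1135 and 1107 in cluster 13. Even these lowest values, from summed UMIs, lay above the erythroid-like background. Whether the typical cell of cluster 13 did so was not tested. Myl7 ran the other way, from 5398 and 5899 CPM in cluster 4, through 9850 and 10775 in cluster 9, to 18163 and 20285 in cluster 13 and 24141 and 23258 in cluster 11. The trabecular-like cluster thus had the least Myl7 of the 4. Myl2 to Myl7 went from 1.90 and 1.60 in cluster 4 to 1.15 and 1.02 in cluster 9, 0.0772 and 0.0983 in cluster 11, and 0.0625 and 0.0546 in cluster 13. Of the essential chains, Myl4 varied little (6461 to 10464 CPM over all clusters and libraries), while Myl3 was at 1682 and 2204 CPM in cluster 13 and at 4928 or more in the others. Mylk3 lay between 111 and 161 CPM in all of them.

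Cells within a cluster were graded. The share of Myl2 in the sum of Myl2 and Myl7 UMIs had a median over cells of 65.7% in +/+ and 61.9% in F/F in cluster 4, with the middle 80% of +/+ cells between 51.5% and 78.4%. In cluster 9 the medians were 58.1% and 51.8%, in cluster 11 4.05% and 6.60%, and in cluster 13 0.971% and 1.205%. In cluster 13 the middle 80% of cells reached up to 28.0% in +/+ and 19.2% in F/F, so Myl2 there was uneven between cells. The share of Myh6 in the sum of Myh6 and Myh7 UMIs was also uneven there. Over the 37 F/F cells with 20 or more such UMIs its median was 94.5%, with the middle 80% between 20.6% and 100%. After thinning to 5000 UMIs per cell, every cardiomyocyte-like cell had Myl4 and Myl7 UMIs in both libraries (566 and 890 cells, after 16 and 42 shallower cells were left out). Myl2 was found in 94.3% and 97.6% of them, Myl3 in 97.5% and 99.0%, Myh7 in 94.9% and 94.8%, Myh6 in 86.2% and 88.3%, Mylk3 in 50.7% and 46.1%, and Myh7b in 7.24% and 4.83%. Unthinned, Myl2 was found in 97.9% and 99.2%. For comparison, 34.7% and 57.8% of thinned erythroid-like cells had a Myl2 UMI, 34.0% and 65.4% a Myl7 UMI, and 8.56% and 14.99% a Myh7 UMI, with median depths of 10907 and 11651 UMIs against 15227 and 14663 in cardiomyocyte-like cells.

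**Figure D5:**
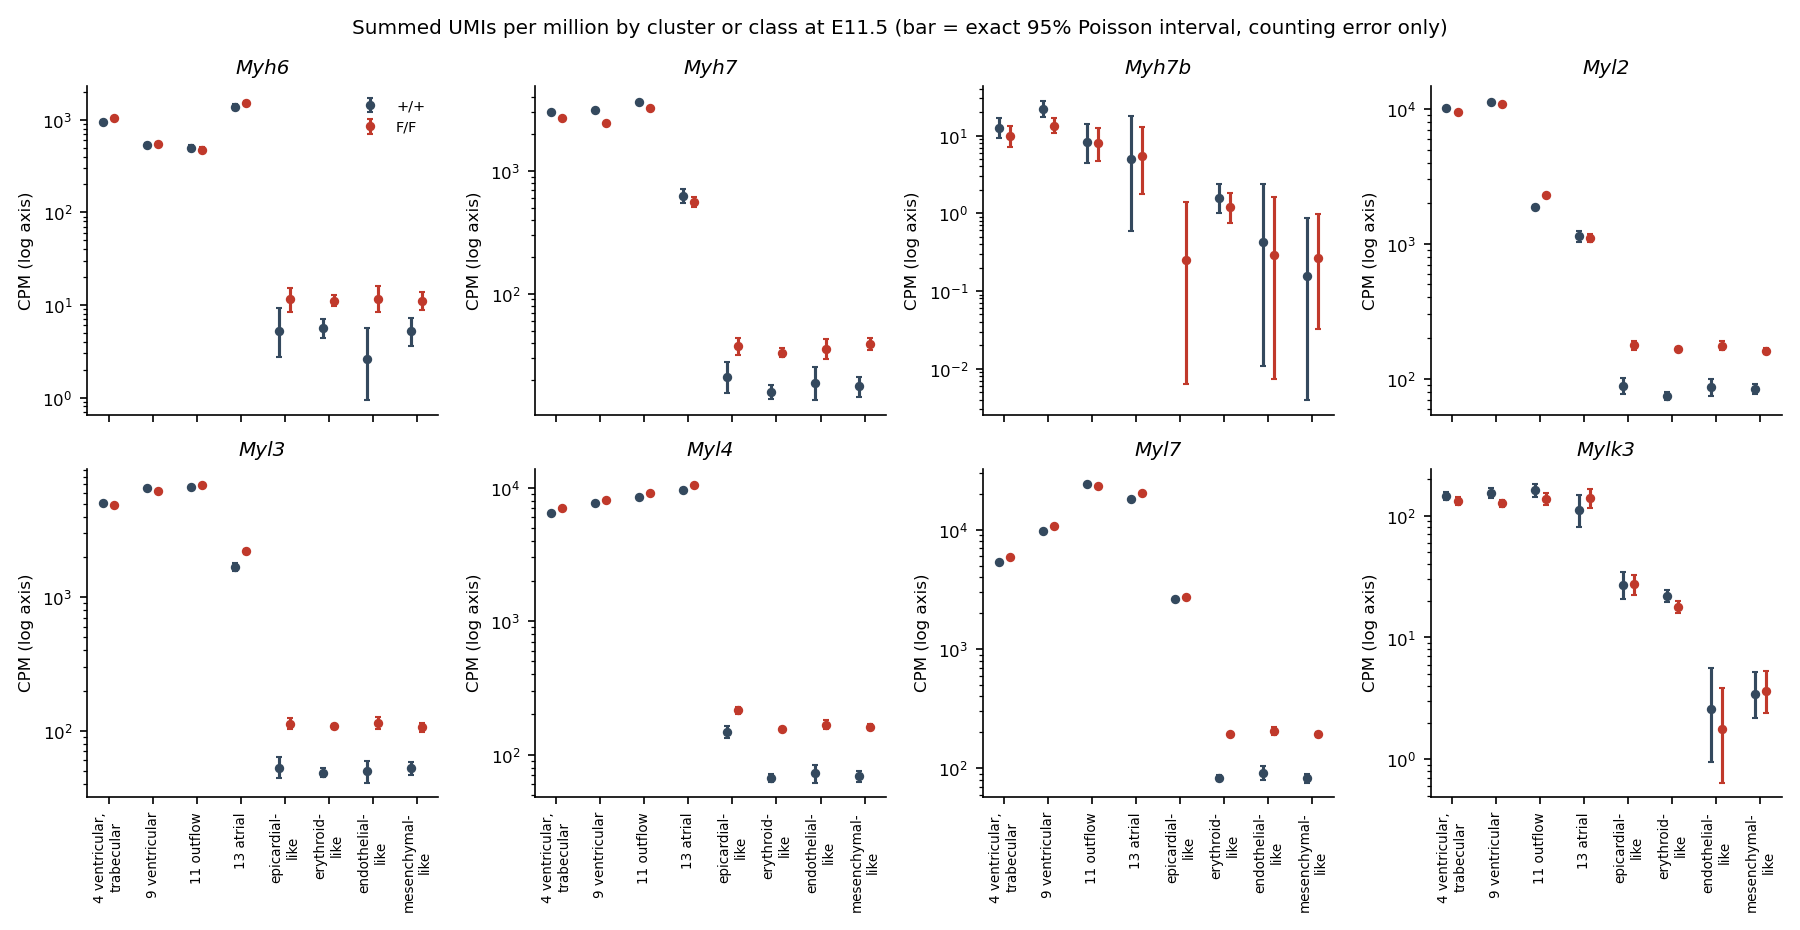
CPM (log axis) of each member by cardiomyocyte-like cluster and other cell class in the +/+ and F/F libraries; bars are exact 95% Poisson intervals, counting error only, and points at 0 are not drawn. Myl7 was at 2637 and 2742 CPM in epicardial-like cells, and the background in other non-muscle cells was higher in F/F for the light chains.

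Among the non-muscle classes, epicardial-like cells carried far more Myl7. Myl7 was at 2637 CPM in +/+ and 2742 in F/F epicardial-like cells (147 and 250 cells), 1.04 times as much in F/F (interval 1.01 to 1.07). Myl2 was at 88.7 and 177 CPM there, close to the erythroid-like values. Over both libraries Myl4 was at 190.5 CPM (interval 180 to 202) in epicardial-like and 118 (114 to 121) in erythroid-like cells. Mylk3 was at 27.2 CPM (23.3 to 31.6), against 19.6 (18.1 to 21.2) in erythroid-like, 3.56 in mesenchymal-like and 2.09 in endothelial-like cells. Myl7 to Myl4 was 17.8 and 12.8 in epicardial-like, 1.23 and 1.24 in erythroid-like and 1.47 in all cardiomyocyte-like cells. The source of the Myl7 in epicardial-like cells was not tested. After thinning, 95.2% and 98.8% of epicardial-like cells had a Myl7 UMI (unthinned, 100% in both). Unnamed cluster 15 (80 cells in each library, led by Rgs5, Iigp1 and Eln) also held Myl7 at 706 and 1228 CPM, Myh7 at 204 and 229, and Mylk3 at 38.6 and 43.2.

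F/F to +/+ ratios in cardiomyocyte-like cells lay between 0.733 and 1.11. Myl7 was at 11972 CPM in F/F and 10745 in +/+, a ratio of 1.11 (1.11 to 1.12), and Myl4 at 8079 and 7373, a ratio of 1.10. Myh7 was at 2522 and 3051 CPM, a ratio of 0.827 (0.814 to 0.840), and it was below 1 in each of the 4 clusters (0.886, 0.786, 0.895 and 0.898). Myh7b (0.733) and Mylk3 (0.873) were also lower in F/F, and Myh6 (1.01), Myl3 (0.994) and Myl2 (0.958) were near 1. Over the 7024 genes that reached 100 UMIs in both libraries, Myh7 stood at the 12.8th percentile of these ratios and Myl7 at the 89.5th, and the median log2 ratio was -0.05. In bulk the E11.5 difference of Myh7 was 0.16 with an SE of 0.37, against F/+ rather than +/+ hearts.

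The pair ratios shifted accordingly. Log2 Myh6 to Myh7 was higher in F/F by 0.29 in cardiomyocyte-like cells (interval 0.24 to 0.34), by 0.32 in cluster 4, 0.38 in cluster 9, 0.10 in cluster 11 (-0.04 to 0.24) and 0.29 in cluster 13. Log2 Myl2 to Myl7 was lower by 0.22 over all of them (-0.23 to -0.20) and lower in clusters 4, 9 and 13 (-0.25, -0.18 and -0.20), but higher by 0.35 in cluster 11. The makeup also differed, with cluster 4 at 41.2% of cardiomyocyte-like cells in +/+ and 30.9% in F/F, and cluster 9 at 34.5% and 44.6%. Without cluster 11 the Myl2 to Myl7 difference was -0.38, and as a mean over the 4 clusters -0.07, both added after the data were seen. Whether the differing free RNA or the viability sort had a part in these differences was not tested.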

How the data were processed

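The bulk table holds FPKM per gene as deposited by the authors; no header names the unit, which was inferred from the values. Per the submitters' processing notes, builds mm9 and mm10 and the tools CASAVA, TopHat, TopHat2 2.0.11 and Cell Ranger were used; the quantifier, annotation and handling of shared reads are not given in the sources used here. UMI counts per gene and barcode, whole numbers, make up the single-cell table deposited by the authors. Per the labels' protocols, bulk libraries were stranded poly(A) libraries, and single cells were trypsinised, stained with 7-AAD and sorted for living cells.

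Groups came from the labels. Values entered as log2(FPKM + 1), on which changes of low genes look smaller than they are. Each fit used limma 3.58.1 (R 4.3.3, trend option) on all genes averaging 1 FPKM or more, with Benjamini-Hochberg adjustment over them. Of 24525 lines, 1 with a blank cell was left out. Ratios had two-sided exact permutation tests (scipy 1.17.1) adjusted over 10 comparisons. Between replicates the share of identical values above 0 was at most 0.0202. On simulated data with 100 genes changed by each size, the fit recovered 25% of log2 changes of 1 and 72% of log2 changes of 2 in the E11.5 comparison of 11491 genes, and 80% and 98% in the 8-week comparison of 10249 genes.

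Barcodes with at least 500 genes were kept (2555 of 2563 +/+ and 3464 of 3469 F/F). Because the doublet caller's own threshold marked only 2 and 4 barcodes, 52 and 96 with the top scores were left out, 0.8% per 1000 barcodes. Clustering used scanpy 1.11.5 (2000 variable genes without the members, 30 components, 15 neighbours, resolution 1.0). Clusters were named from fixed markers where at least 3, and at least 2/3 of the list, led. By this rule 3 clusters (183 cells) stayed unnamed. Among them was cluster 16 (10 cells), where 7 of 12 cardiomyocyte markers led and Myl2 was at 15582 CPM over both libraries. The libraries held 38261010 and 51408470 UMIs. UMIs were summed per class and library.

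Named genes were the 8 members, the 3 genes most like Myh6, Myh7, Myl2 and Myl7, and the 3 largest called rises and falls of the wider list in the control steps, of which 1 is not reported here; Sln, Mybphl, Nppa, Ttn, Gapdh and cluster 15 were named after their values were seen. The members and lists were chosen with earlier results of these data known. Sequences are from RefSeq and GENCODE tables for GRCm38.p6. Alternatives covered pseudocount, filter, scaling, shared fits, covariates, replicate numbers and leaving out libraries.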

Additional observations from a re-analysis of the deposited data

Results flagged for a closer look

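Within groups of 4 to 10 libraries, 8 of 20 tested groups of values held a library whose gap to its nearest neighbour was large for the group's range (Dixon's 95% criterion, which chance alone passes in about 1 of 20 groups); many of these values are not independent. Myh7 was 803.63 FPKM in 8-week +/+ replicate 2 and 975.58 FPKM in D/D replicate 6, and the log2 ratio of Myh6 to Myh7 was lowest in the same 2 libraries, at 3.07 and 3.19. The atrial essential chain Myl4 was 229.12 FPKM in +/+ replicate 1 and 251.8 FPKM in D/D replicate 2. The atrial regulatory chain Myl7 was 322.72 FPKM and 397.6 FPKM in those libraries. Each pair thus had 1 control and 1 D/D library.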

How the results depend on the processing

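No member was called in a genotype comparison under any alternative run, and the count of called members stayed within 1.5 times its value in all 106 alternatives of the 7 comparisons. Of the alternative values for single members, 681 kept direction and side of the threshold, 25 changed sign, 3 gained and 13 lost the call. Those that changed sign at E11.5 were Myh6 (0.28) and Myh7 (-0.12) without both libraries low in long transcripts, Myh7 (-0.21), Myl3 (-0.011) and Mylk3 (-0.20) with the sum without haemoglobin, and, leaving out a library, Myh6 (-0.29 to 0.37), Myh7 (-0.34 to 0.49) and Myh7b (-0.70 to 0.045). At E16.5 they were Myh7b (-0.063) and Myl3 (0.072) with a Y-linked term, Mylk3 (-0.0023) with median-ratio scaling, and, leaving out a library, Myh7b (-0.065 to 0.15), Myl2 (-0.068 to 0.77), Myl3 (-0.044 to 0.046) and Mylk3 (-0.040 to 0.055). At 8 weeks they were Myl7 over the 10 libraries of both sets (-0.11 with and without a term for the sets), and in F/F the stage step of Myh6 (0.061) with the sum without haemoglobin. The cause was not tested.

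The count of all genes called at E11.5, 1 as reported, was 4 with the sum without haemoglobin, 24 with all 25 libraries in a fit, 3 without both libraries low in long transcripts and 1 to 2 leaving out a library. At E16.5 (1 as reported) it was 2 with a pseudocount of 0.1, 3 with a Y-linked term and 0 to 2 leaving out a library. For the difference between stages (1 as reported) it was 2 with a pseudocount of 0.1, 3 without a filter, 2 with the sum without haemoglobin, 6 with all libraries in a fit, 17 without both libraries and 1 to 9 leaving out a library, the highest without F/+ E11.5 replicate 3.

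Leaving out a library, the log2 difference of Myh6 to Myh7 ran from -0.46 to 0.18 at E11.5, from -0.011 to 0.12 at E16.5 and from -0.030 to 0.81 at 8 weeks; that of Myl2 to Myl7 ran from -0.14 to 0.076, -0.31 to 0.48 and -1.51 to -0.35. Over the 10 libraries of both 8-week sets they were 1.07 and 0.083, and without +/+ replicate 2 as well 0.66 and 0.049. From E16.5 to 8 weeks they ran from 8.19 to 8.88 and from 7.49 to 9.21, and none of these smaller designs can pass the threshold. In single cells Myl2 to Myl7 was -0.38 without the outflow-like cluster and -0.068 as a mean over clusters.

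With the replicate number as a block, 2 genes were called at E11.5, no member changed its call, and Myl3 at 8 weeks was -0.0013. Deviations of same-numbered samples had r from -0.04 to 0.08 at E11.5 and from -0.43 to 0.04 at E16.5. At 8 weeks r was 0.53, 0.42 and 0.21 for numbers 1, 2 and 5 but -0.04 and -0.11 for 3 and 4; numbers 1 and 2 of +/+ and D/D fell in the first set and 3 and 4 in the second. Since not every pair was above 0.1 and no label ties the numbers, they were not taken as pairs. Depth of the bulk libraries is unknown, which limits low genes such as Myh7b most.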
